A study of Mus musculus with 2 samples.

Results

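Chemokines and their receptors were taken as the 53 genes of the deposited spleen RNA table whose symbols follow the standard names (Ccl, Cxcl, Xcl, Cx3cl, Ccr, Cxcr, Xcr or Cx3cr with a number), out of 22216 gene rows. They comprised 34 ligand genes and 19 receptor genes, and no measured value entered the choice. The samples were spleen RNA of 2 kinds of NOD (non-obese diabetic) mice, an inbred strain prone to autoimmune diabetes. The genotypes were named NOD.g7 and NOD.L7 in the labels, and the series title calls the latter NOD.Lc7. The labels and design text used here do not say what g7, L7 and Lc7 stand for, and give no age, sex or treatment of the mice. Each group was 1 RNA sequencing library made from the pooled spleens of 3 mice, so there was no replicate. Every difference below is one between 2 libraries, with no test and no check against the spread between mice.

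Chemokines are small secreted proteins that guide leukocytes along gradients. They are sorted into families by the spacing of their first conserved cysteines. These are adjacent in the CC family, parted by a residue in the CXC family and by a longer stretch in the CX3C family. Of these cysteines, the XC family keeps only a single one. Chemokine receptors are proteins with many membrane passes that couple to inhibitory G proteins. Most carry a DRY motif (aspartate, arginine, tyrosine) at the inner membrane face. In the spleen, Ccr7 with Ccl19 and Ccl21 gathers T cells and dendritic cells in the T zone, Cxcr5 with Cxcl13 gathers B cells in follicles, and Cxcr4 responds to Cxcl12.

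By letters alone, the family pattern was found in the coding sequence of all 34 ligands and the DRY codons in 17 of 19 receptors. The exceptions were Cxcr6 and Xcr1. In ligands the first match past the start of the protein was taken, and for Xcl1 any single cysteine counted. A ligand match was thus easily met, and whether it is the conserved site was not checked. There were 19 CC ligands and 13 CXC ligands. Of the CXC ligands 5 had the ELR codons (glutamate, leucine, arginine) just before the first cysteine, the mark of ligands of the neutrophil receptor Cxcr2. They were Cxcl1, Cxcl2, Cxcl3, Cxcl5 and Cxcl15. The stretches below, from GENCODE transcripts on GRCm38, show each family type through the ligands on which the results turn. They are spliced coding sequence, 5′ to 3′ on the coding strand, with the cysteine codons that define the family in capitals. Where the genomic span is longer than the sequence, an intron lies within it.
Ccl5, chr11:83529218-83530389, minus strand: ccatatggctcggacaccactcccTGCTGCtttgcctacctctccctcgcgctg
Ccl6, chr11:83589362-83589757, minus strand: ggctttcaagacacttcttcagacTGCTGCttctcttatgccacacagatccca
Ccl9, chr11:83575902-83576378, minus strand: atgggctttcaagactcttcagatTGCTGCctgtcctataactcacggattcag
Ccl24, chr5:135572641-135572900, minus strand: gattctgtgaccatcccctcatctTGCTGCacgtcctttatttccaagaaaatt
Cxcl10, chr5:92348157-92348213, minus strand: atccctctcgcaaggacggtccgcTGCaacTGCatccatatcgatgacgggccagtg
Cxcl2, chr5:90904118-90904174, plus strand: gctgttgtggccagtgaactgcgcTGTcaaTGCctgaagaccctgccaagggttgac
Xcl1, chr1:164932951-164933001, minus strand: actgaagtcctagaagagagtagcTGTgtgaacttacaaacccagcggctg
Cx3cl1, chr8:94772334-94778089, plus strand: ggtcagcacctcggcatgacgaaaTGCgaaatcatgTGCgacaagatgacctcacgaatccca

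The matching stretches of the receptors on which the results turn are shown with the DRY codons in capitals.
Cxcr2, chr1:74158748-74158804, plus strand: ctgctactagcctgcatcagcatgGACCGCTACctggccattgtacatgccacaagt
Ccr1, chr9:123964072-123964128, minus strand: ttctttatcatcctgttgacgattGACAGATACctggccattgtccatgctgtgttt
Ccr3, chr9:124029005-124029061, plus strand: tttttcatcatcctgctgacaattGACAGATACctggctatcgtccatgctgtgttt
Ccr2, chr9:124106108-124106164, plus strand: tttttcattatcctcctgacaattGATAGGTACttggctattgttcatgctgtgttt
Ccr9, chr9:123779657-123779713, plus strand: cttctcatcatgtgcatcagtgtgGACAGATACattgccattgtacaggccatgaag
Cx3cr1, chr9:120051924-120051980, minus strand: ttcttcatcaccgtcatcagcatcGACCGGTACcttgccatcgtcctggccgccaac

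Levels were given as RPKM, reads scaled to gene length and to the size of the library, which allows levels of different genes to be set side by side. Where a pair of levels follows a gene or list, the first is NOD.g7 and the other NOD.L7. About 9.13 Gb of mapped sequence lay behind NOD.g7 and 12.1 Gb behind NOD.L7. Differences are log2((NOD.L7 RPKM + 1)/(NOD.g7 RPKM + 1)), a scale that understates the change of low genes, or the plain fold between RPKM values. Folds carry a 95% exact binomial (Clopper-Pearson) interval from an approximate number of sequenced fragments, which covers counting error only and leaves out mice and library making. Over the marker lists, both libraries held B cell genes (summed RPKM 2512 and 2011 in NOD.g7 and NOD.L7) and T cell genes (844 and 865). In the pancreas list Ins1 and Ins2 were listed at 0 in both libraries, and the list summed to 3.53 and 2.65. Of that sum Cela1 gave 2.29 and 2.65. Pnlip was at 0.568 and Ctrb1 at 0.667 in NOD.g7, and both were listed at 0 in NOD.L7.

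Of the 53 genes, 30 reached an RPKM of 1 in either library, 18 receptors and 12 ligands. Of the other 23, 22 were ligands and 1 was the receptor Cxcr1. Of the 30 genes, 3 passed through 1 library alone, Ccl24 through NOD.g7 and Ccl25 and Ccr8 through NOD.L7, and so had to differ to some degree. Cxcr2 and Ccr1 reached an absolute log2 ratio of 1, both higher in NOD.L7. That is 2 of 30 genes, against 0.709% of the 11141 genes of the table that passed the same filter. At a smaller limit of 0.5, 4 of the 30 were higher in NOD.L7 (Cxcr2, Ccr1, Ccr3 and Ccr4), against 2.52% of all genes. Another 4 were lower (Ccr9, Ccl24, Ccl5 and Cx3cr1), against 1.58%. Of the 30, 17 were above 0 on the log2 scale, beside 56.2% of all genes. The medians were 0.07 for ligands and 0.05 for receptors, beside 0.02 for all genes. The differences thus ran in both directions, and 14 of the 30 genes lay within 0.25 of 0, or 46.7%, beside 86.4% of all genes. Of the 30 genes, 10 had a counting interval that held a fold of 1.

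**Figure D1:**
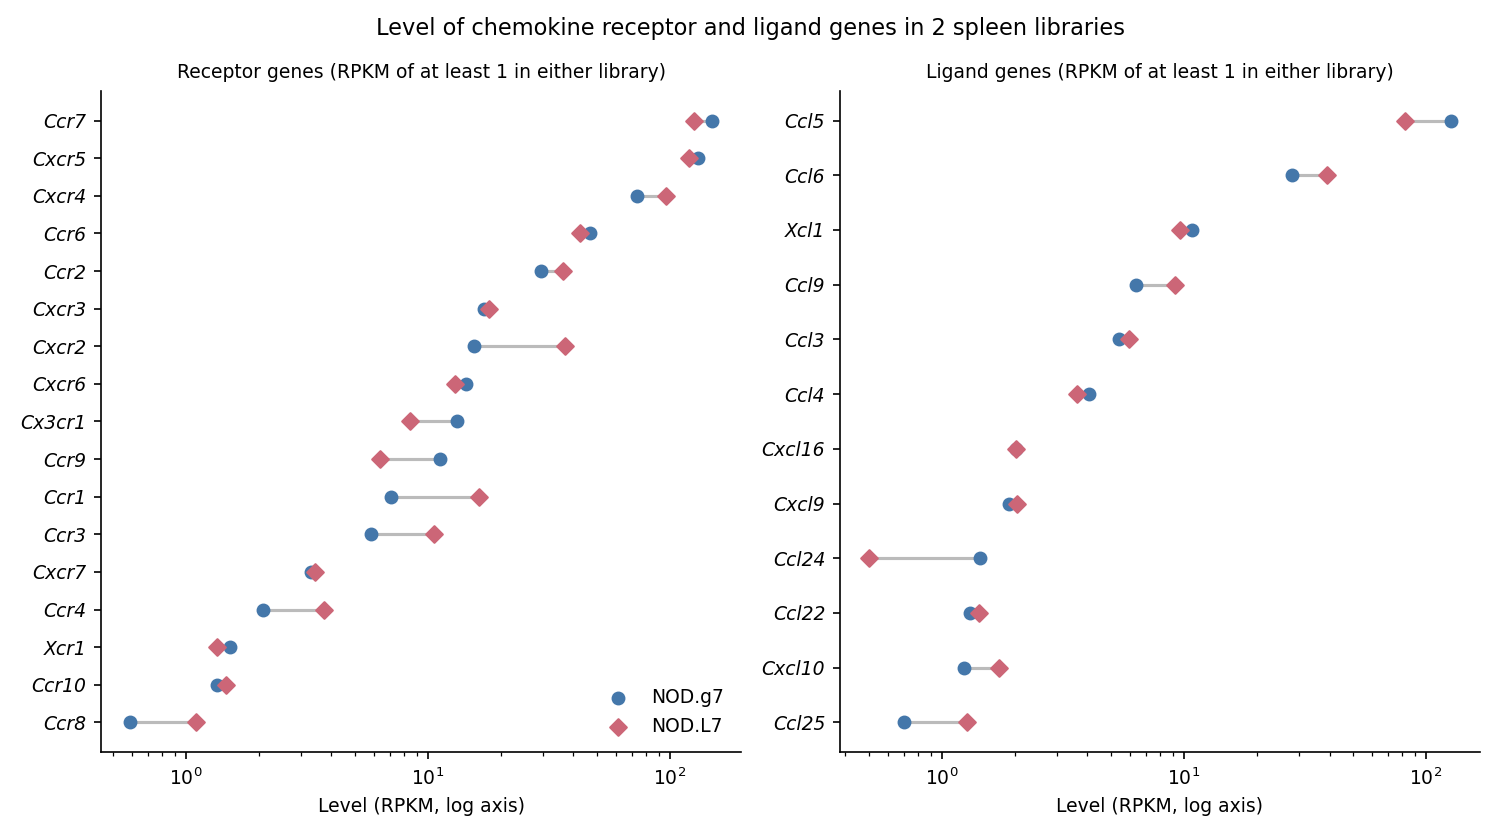
Level of 17 receptor genes (left) and 12 ligand genes (right) that reached an RPKM of 1 in any library, on a log axis, with circles for NOD.g7 and diamonds for NOD.L7, 1 library each. Ccr7, Cxcr5 and Cxcr4 lie at the top of the receptors in both libraries and Ccl5 at the top of the ligands, while the longest lines are those of Cxcr2, Ccr1 and Ccl24.

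**Figure D2:**
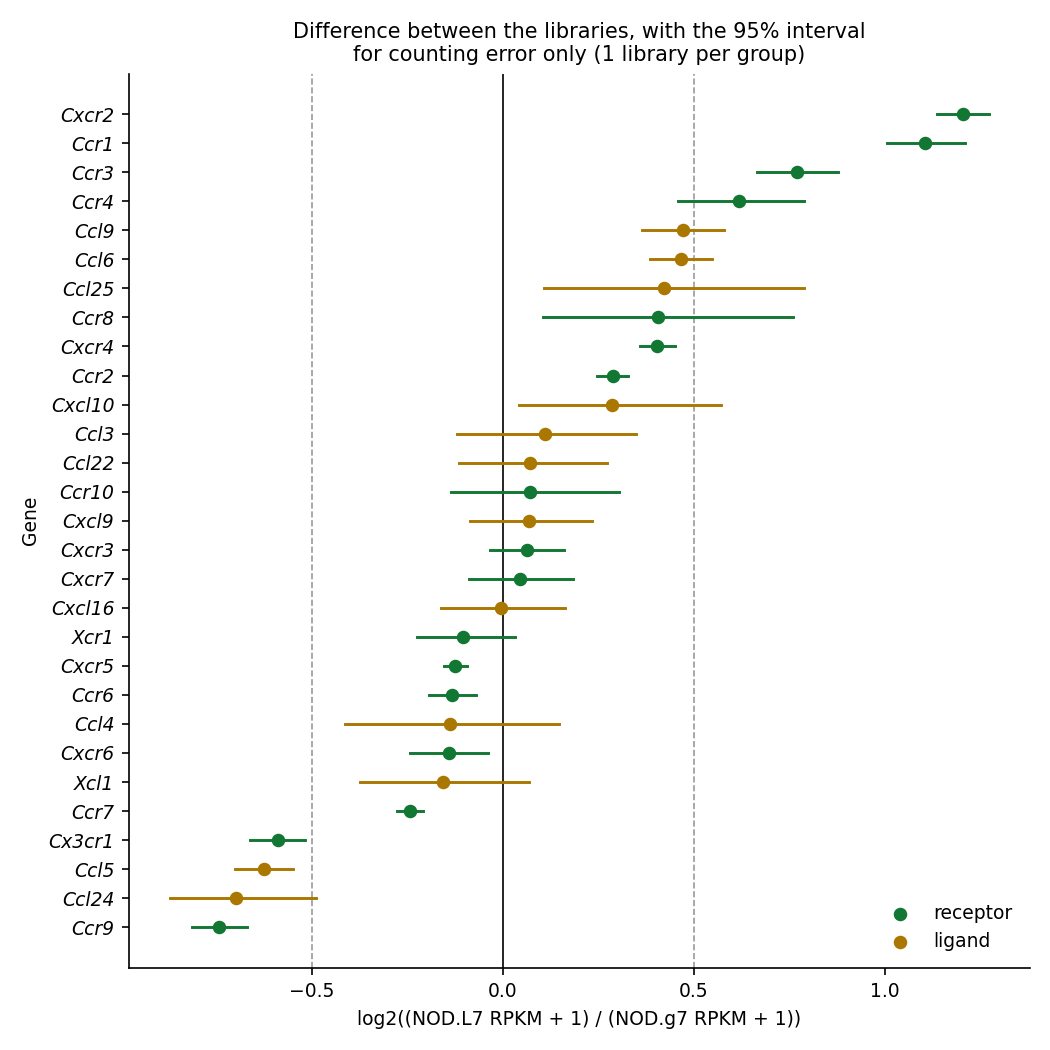
Difference between the libraries for the same 29 genes, with lines for the 95% interval that covers counting error only and dashed lines at the limit of 0.5 on the log2 scale. Cxcr2, Ccr1, Ccr3 and Ccr4 lie to the right of the upper limit and Ccr9, Ccl24, Ccl5 and Cx3cr1 to the left of the lower limit.

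Among receptors, the widest differences were those of Cxcr2 and Ccr1, both carried by myeloid cells. Cxcr2, the receptor through which neutrophils follow ELR chemokines, had an RPKM of 15.6 in NOD.g7 against 37.1 in NOD.L7. It was 2.39-fold higher in NOD.L7 (counting interval 2.27 to 2.50), from about 2163 and 6832 fragments. Ccr1, a receptor of monocytes, neutrophils and other myeloid cells, was at 7.07 and 16.4, 2.31-fold higher (2.15 to 2.50). Both moved from the middle of the receptor order upward, Cxcr2 from rank 7 to rank 5 of 19 and Ccr1 from rank 11 to rank 8. Ccr3, the eotaxin receptor of eosinophils, was at 5.81 and 10.6, 1.83-fold higher (1.69 to 1.98).

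Other receptors of monocytes differed less or went the other way. Ccr2, which brings monocytes out of the bone marrow, was at 29.5 in NOD.g7 against 36.2 in NOD.L7, 1.23-fold higher (1.19 to 1.26). Cx3cr1, the fractalkine receptor of patrolling monocytes, some dendritic cells and cytotoxic lymphocytes, was at 13.2 and 8.44, 1.56-fold lower in NOD.L7 (1.48 to 1.65). The level of Ccr2 was thus 2.24 times that of Cx3cr1 in NOD.g7 against 4.29 times in NOD.L7.

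Marker genes of the cells that carry these receptors differed between the same libraries. In this bulk RNA, fewer cells of a type and less RNA per cell cannot be told apart. Of 10 neutrophil markers 6 were higher in NOD.L7, beside 56.2% of all genes, and no member was at 0. The 4 lower ones were Camp, Mpo, Elane and Ltf. The list summed to 847 and 1084, with S100a9 at 416 and 570 and Retnlg, 2.24-fold higher, at 16.4 and 36.8. Within it, Csf3r, the granulocyte growth factor receptor, was at 39.0 and 73.7, while the granule gene Ngp was at 68.8 and 70.2. The level of Cxcr2 was 0.399 times that of Csf3r in NOD.g7 and 0.503 times in NOD.L7. All 13 monocyte and macrophage markers were higher in NOD.L7, summing to 940 and 1183, with none at 0 and 8 past the limit of 0.5. Their folds ranged from 1.03 for the lysozyme gene Lyz2 to 3.82 for the endotoxin coreceptor gene Cd14, with Ccr1 between them, below Cd14 and Cd163 (2.47) and above the other 11. Of the 5 eosinophil and basophil markers 3 passed the filter, all higher in NOD.L7, and the list summed to 6.65 and 9.46. The eosinophil granule genes Prg2 and Epx were at 3.43 and 3.88 and at 0.0235 and 0.0407, and the lectin gene Siglec5 at 0.392 and 0.999. The basophil and mast cell gene Fcer1a was at 0.282 and 1.28, passing through NOD.L7 alone. Ccr3 was at 14.8 times the level of Siglec5 in NOD.g7 against 10.6 times in NOD.L7. The part of these cell types in the differences of Cxcr2, Ccr1 and Ccr3 was not tested.

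**Figure D3:**
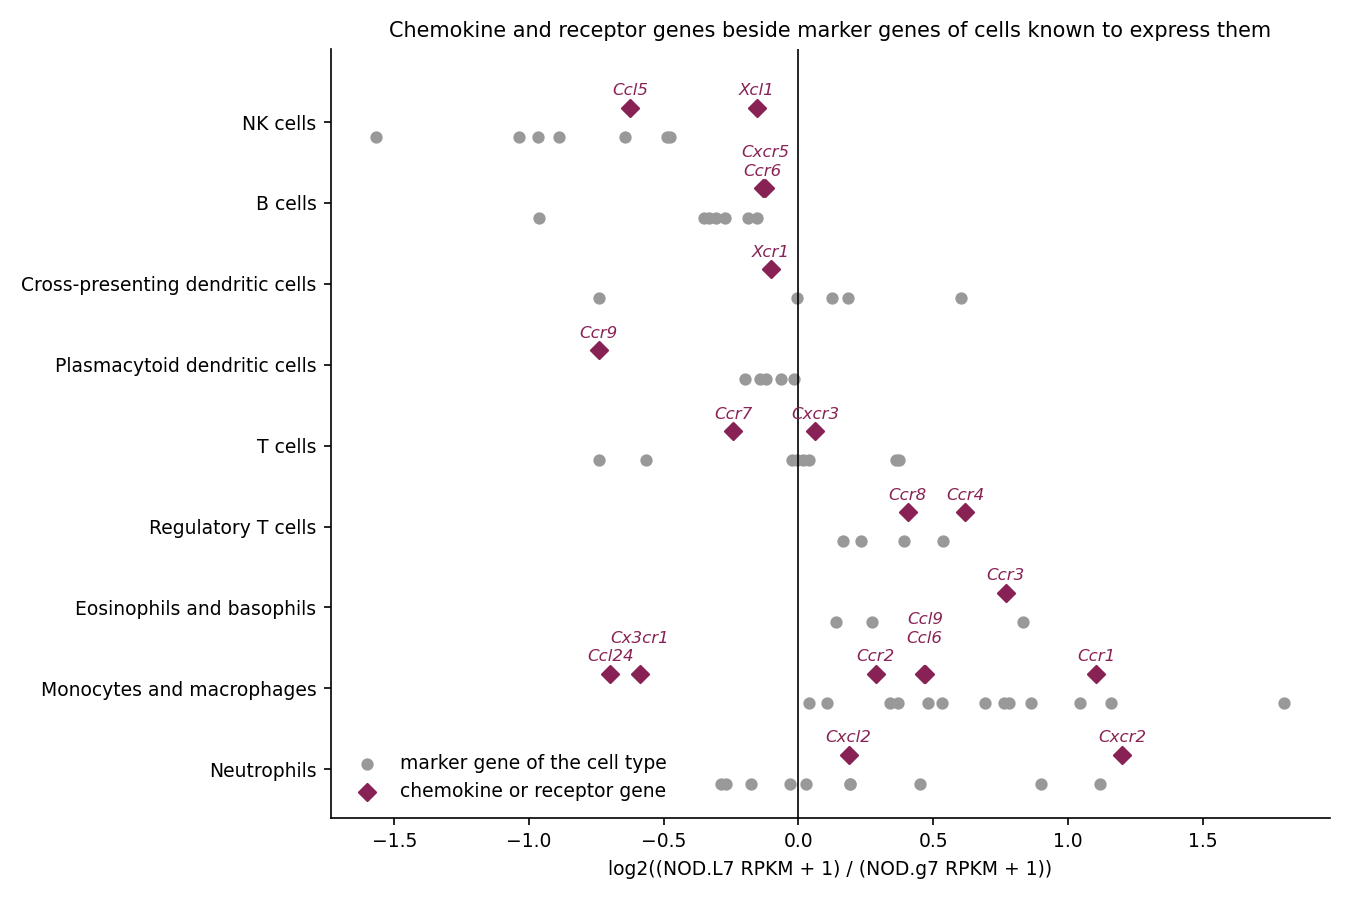
Difference between the libraries (log2 ratio) for 19 chemokine and receptor genes (diamonds, named) beside the marker genes (grey circles) of a cell type known to express them, for markers that reached an RPKM of 1 in any library. Cxcr2 lies to the right of every neutrophil marker, Ccr9 lies to the left of every marker of plasmacytoid dendritic cells, and Cx3cr1 and Ccl24 lie to the left of every monocyte and macrophage marker.

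Among receptors of T cell subsets, Ccr4 and Ccr8, both carried by regulatory T cells, were low and higher in NOD.L7. Ccr4, a receptor of regulatory and type 2 helper T cells, was at 2.09 in NOD.g7 against 3.74 in NOD.L7, 1.79-fold higher (1.55 to 2.08). Ccr8, found on regulatory T cells of tissues, was at 0.588 and 1.10, from about 32 and 78 fragments. It passed the filter through NOD.L7 alone, so the filter fixed its direction. Its fold of 1.88 had an interval of 1.21 to 2.87. Markers of regulatory T cells lay on the same side, with 4 of 4 higher and the list summing to 29.8 and 40.4, none at 0. Relative to Foxp3, the lineage factor of these cells, Ccr4 was at 0.156 in NOD.g7 against 0.188 in NOD.L7, and Ccr8 at 0.0439 and 0.0555. The part of these cells was not tested.

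Cxcr3, the receptor of interferon-induced chemokines on type 1 T cells, was at 17.2 in NOD.g7 against 17.96 in NOD.L7, with a counting interval that held a fold of 1. Cxcr6, carried by resident and memory T cells and NKT cells, was at 14.4 and 12.9. Ccr10, a receptor of skin-homing T cells and of plasma cells, was at 1.35 and 1.46. The scavenging receptor Cxcr7 (now named Ackr3) was at 3.28 and 3.42.

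Ccr9, the gut and thymus homing receptor that is also carried by plasmacytoid dendritic cells, was the receptor furthest below in NOD.L7. It was at 11.3 in NOD.g7 against 6.34 in NOD.L7, 1.78-fold lower (1.68 to 1.88), from about 2672 and 1991 fragments. The markers of plasmacytoid dendritic cells were closer between libraries. All 5 were lower in NOD.L7, the list summed to 238 and 223, none was at 0 and none passed the limit of 0.5. Siglech, a surface lectin of these cells, was at 21.8 and 18.8. Ccr9 was at 0.518 times the level of Siglech in NOD.g7 and at 0.337 times in NOD.L7. Ccr9 is also expressed by some T cells, and of the 8 T cell markers 4 were higher and 4 lower in NOD.L7. Cd8a was at 53.7 and 31.7 and Cd4 at 106 and 136. The part of either cell type was not tested. Xcr1, the receptor of cross-presenting dendritic cells, was at 1.52 and 1.34 with an interval that held a fold of 1, and their lectin receptor gene Clec9a was at 2.40 and 2.39.

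The lymphocyte positioning receptors were the most abundant of the family. Ccr7 was at 149.7 in NOD.g7 against 126 in NOD.L7, Cxcr5 at 131 and 120.2, and Cxcr4 at 73.0 and 96.9. Together they made up 66.8% of the summed receptor RPKM in NOD.g7 and 62.6% in NOD.L7. Their differences went in opposite directions. Ccr7 was 1.18-fold lower in NOD.L7 (1.16 to 1.21) and Cxcr5 1.09-fold lower (1.07 to 1.11), while Cxcr4 was 1.33-fold higher (1.29 to 1.37). Ccr6, a receptor of naive B cells and type 17 T cells, was at 46.7 and 42.5. All 7 B cell markers were lower in NOD.L7 as well, at log2 ratios from -0.15 to -0.96, and none was at 0. The part of B cell content in the values of Cxcr5 and Ccr6 was not tested.

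Among ligands, Ccl5 (RANTES), made by cytotoxic and memory T cells and NK cells, held the highest level. It was at 127 in NOD.g7 against 81.8 in NOD.L7, 1.55-fold lower (1.47 to 1.63). It made up 66.1% of the summed ligand RPKM in NOD.g7 and 51.0% in NOD.L7. Xcl1 (lymphotactin), made by NK cells and activated CD8 T cells, was at 10.9 and 9.64 with an interval of the inverse fold of 0.949 to 1.33. Of its 50-base words 10.8% also occurred in another gene. All 7 NK cell markers were lower in NOD.L7 and the list summed to 166 and 75.4, with none at 0. The granzyme gene Gzma was at 79.9 and 26.3 and the NK receptor gene Ncr1 at 24.9 and 11.6. The log2 ratio of Ccl5, -0.62, lay within the range of the NK markers and above their median of -0.89. That of Xcl1, -0.16, lay above all 7. Ccl5 was at 1.58 times the level of Gzma in NOD.g7 against 3.11 times in NOD.L7. Of the 8 T cell markers 4 were higher and 4 lower in NOD.L7, with Cd8a at a log2 ratio of -0.74 and Cd8b1 at -0.57. The part of NK cells or CD8 T cells in the level of Ccl5 was not tested. Nor was the part of NK cells tested for Cx3cr1, which NK cells also carry.

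Ccl3 and Ccl4 (the macrophage inflammatory proteins), induced in activated myeloid and cytotoxic cells, were at 5.42 and 5.92 and at 4.08 and 3.61, both with intervals that held a fold of 1. The myeloid ligands Ccl6 and Ccl9, which act on Ccr1, were higher in NOD.L7. Ccl6 was at 28.0 and 39.1, 1.395-fold higher (1.32 to 1.48), and Ccl9 at 6.37 and 9.22, 1.45-fold higher (1.33 to 1.57). Their ratio within a library was nearly constant, Ccl6 being 4.40 times Ccl9 in NOD.g7 against 4.24 times in NOD.L7. Both lay just inside the limit of 0.5, at log2 ratios of 0.47 each.

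Ccl24 (eotaxin-2), a ligand of Ccr3 made by macrophages, was lower in NOD.L7, unlike Ccl6 and Ccl9. It was at 1.43 in NOD.g7 against 0.4999 in NOD.L7, 2.87-fold lower (1.95 to 4.33), from about 85 and 39 fragments. Ccl24 passed the filter through NOD.g7 alone, so the filter fixed its direction. No macrophage marker was lower in NOD.L7. Its log2 ratio was -0.70 with the pseudocount of 1 and -1.35 with 0.1, so that at 0.1 it passed the limit of 1.

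The interferon-induced ligands of Cxcr3 were low in both libraries, Cxcl9 at 1.90 and 2.05 and Cxcl10 at 1.24 and 1.73. Cxcl10 was 1.39-fold higher in NOD.L7 (1.05 to 1.88). Cxcl16, the membrane-bound ligand of Cxcr6, was at 2.03 and 2.02, and 19% of its 50-base words also occurred in the neighbouring gene Zmynd15. Ccl22, a dendritic cell ligand of Ccr4, was at 1.305 and 1.42. Ccl25, the thymic and gut ligand of Ccr9, was at 0.697 and 1.27, 1.83-fold higher (1.19 to 2.77), while Ccr9 itself was lower. Ccl25 passed the filter through NOD.L7 alone.

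The remaining 22 ligands stayed below an RPKM of 0.5 in both libraries, and 6 of them were listed at 0 in both (Ccl8, Ccl11, Ccl12, Ccl20, Ccl26 and Cxcl15). The ligands of the 3 most abundant receptors were among them, named here after their values were seen. Cxcl13 was at 0.453 and 0.356, Cxcl12 at 0.0791 and 0.0858, and Ccl19 at 0.00723 in NOD.g7 with a listed value of 0 in NOD.L7. Ccl19 shared 59.1% of its 50-base words with other genes and Ccl27a 66.4%, so their levels are uncertain, and the Ccl21 genes are not analysed here. These ligands are made by stromal cells of the spleen. Among 8 markers of stroma and endothelium, Lum was listed at 0 in both libraries, Madcam1 was at 0 and 0.0466, Pdpn at 0.0124 and 0.0166 and Col1a1 at 0.0755 and 0.0607. Pecam1, which leukocytes and platelets also carry, gave most of the list's sum of 74.3 and 73.0. Apart from Pecam1 and Cdh5, the markers of this list stayed below an RPKM of 0.5 in both libraries, and the part of stromal content in the low ligand values was not tested.

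Set beside each other by a list of textbook pairs, which leaves out Ccl6 and Ccl9 with Ccr1, 28 pairs joined 17 receptors with their ligands, and the receptor was above the ligand in both libraries in 26 pairs. Ccl5 with Ccr1 and Xcl1 with Xcr1 were the listed pairs where it was not, and Ccl6, outside the list, was also above Ccr1 in both libraries. For the receptor furthest above in NOD.L7, Cxcr2, the listed ligand genes were near the floor. Cxcl1 was at 0.0231 and 0.0288, Cxcl2 at 0.111 and 0.263, Cxcl3 at 0 and 0.0163, and Cxcl5 at 0.0265 and 0. For Ccr3, the ligand gene Ccl11 was listed at 0 in both, and Cx3cl1, the ligand of Cx3cr1, was at 0.129 and 0.132. Thus no listed partner of Cxcr2 reached an RPKM of 0.5 in either spleen library. The list keeps to the naming rule and so leaves out the CXC ligand gene Ppbp (Cxcl7), at 6.16 and 10.1. It therefore does not cover every possible ligand of Cxcr2.

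**Figure D4:**
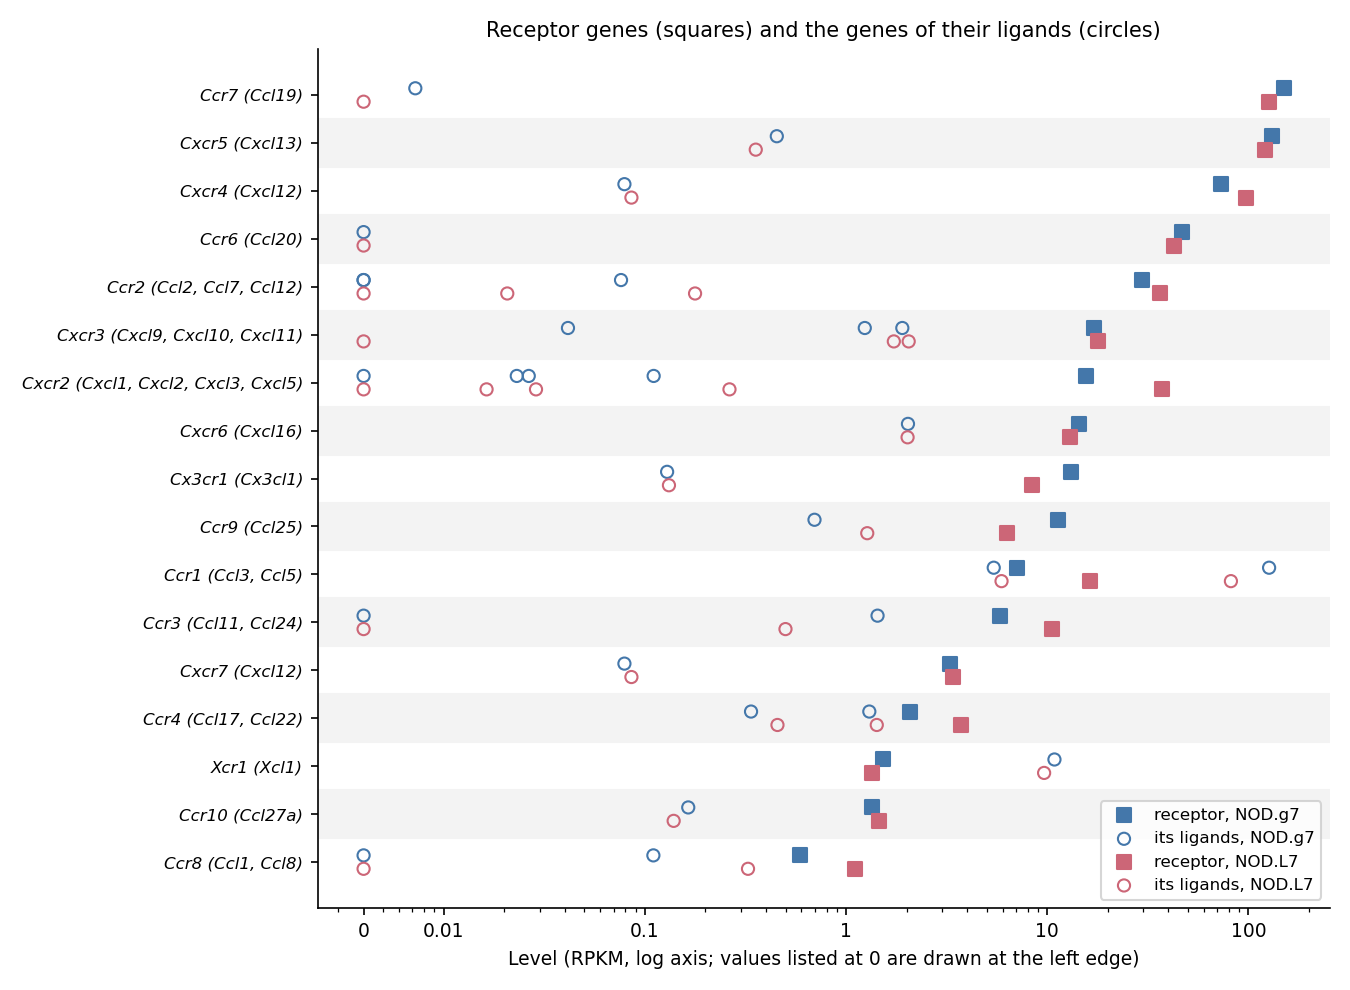
Level of each receptor gene (filled squares) and of its textbook ligand genes (open circles, named in parentheses) in NOD.g7 and NOD.L7, on a log axis with values listed at 0 drawn at the tick marked 0. The ligands lie to the left of their receptor in both libraries for every receptor shown except Ccr1 and Xcr1.

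The genes lie in clusters, which the choice of members did not use. In the coordinates of the deposited table (mm9), 6 receptors lie within 348 kb of chromosome 9, from 123676329 to 124023879, in the order Ccr9, Cxcr6, Xcr1, Ccr1, Ccr3 and Ccr2. All 6 passed the filter, 3 higher and 3 lower in NOD.L7. The stretch was bounded at Ccr9 and Ccr2 and does not hold all 11 receptors of chromosome 9. No rule of direction by position is read from it. Ccr9, Cxcr6 and Xcr1, at the start of the stretch, were lower in NOD.L7, at log2 ratios of -0.74, -0.14 and -0.10. Ccr1, Ccr3 and Ccr2, which follow them, were higher at 1.10, 0.77 and 0.29. Cxcr2 lies apart from them on chromosome 1, from 74200568 to 74207820, beside Cxcr1, with a listed value of 0 in NOD.g7 against 0.0190 in NOD.L7.

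On chromosome 11, 5 CC ligands lie within 139 kb, from Ccl5 (start 83339281) to Ccl4 (end 83478185). Here Ccl5 was lower in NOD.L7 and its neighbours Ccl9 and Ccl6 were higher. A second cluster on that chromosome, Ccl2 to Ccl1 (81849079 to 81993314), held 6 ligands, none above an RPKM of 0.33 in either library. The ELR ligands on chromosome 5, Cxcl5 to Cxcl2 (91188325 to 91334964), were 5 genes with none above 0.27. The 1 member on chromosome 7 was Cxcl17, at 0.0577 and 0.0541.

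For the neighbours Ccr1 and Ccr3, which were both higher in NOD.L7, the 200 bases before the RefSeq start site (GRCm38.p6) are shown. GAGGAA is the core recognised by ETS factors such as the myeloid factor PU.1. Ccr2, which follows Ccr3 and was also higher, had no match to GAGGAA and is not shown. The stretches run 5′ to 3′ on the gene's strand, with the match to GAGGAA in capitals.
Ccr1 promoter, chr9:123968693-123968892, minus strand: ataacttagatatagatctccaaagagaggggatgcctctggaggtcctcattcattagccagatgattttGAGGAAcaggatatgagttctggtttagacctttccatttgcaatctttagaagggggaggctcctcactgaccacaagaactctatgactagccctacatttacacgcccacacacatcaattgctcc
Ccr3 promoter, chr9:124021771-124021970, plus strand: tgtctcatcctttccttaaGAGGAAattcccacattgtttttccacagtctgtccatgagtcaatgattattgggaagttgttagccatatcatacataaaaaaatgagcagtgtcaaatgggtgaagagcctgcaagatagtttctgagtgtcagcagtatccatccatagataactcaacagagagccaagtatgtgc

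Among the 53 genes 38 had a RefSeq promoter entry, and 9 motifs were searched on both strands of the 250 bases before the start. GAGGAA began 129 bases before the start in Ccr1, 181 in Ccr3 and 81 in Cxcr2, and was in 13 of the 42 windows of these genes and in 23.3% of all 32851 promoter windows. Its letters were not in the windows of Ccr4, Ccr9 or Cx3cr1, and Ccl5 and Ccl24 had no entry. The RUNX motif TGTGGT, in 14% of all windows, was found in Ccr1 and Cx3cr1, 58 and 54 bases before the start. The other motifs were not found in these 6 windows. They were the PU.1 motif GAGGAAGT, which contains GAGGAA (2.44% of all windows), the C/EBP motif TTGCNNAA (9.56%), the T-box motif AGGTGTGA (1.12%) and the TATA box TATAAA (12.4%). The rest were the NF-kB motif GGGANTTCC (1.43%), the interferon response element (2.98%) and the IRF4 composite element (2.3%). Outside those 6 windows, GAGGAA did not keep to genes higher in NOD.L7. It was not found for Ccr2, higher at a log2 ratio of 0.29. It was found in a window of Ccr6, lower at -0.13, 218 bases before the start. For Cxcr3, at 0.06, it began 14 bases before the start, within a match to GAGGAAGT. Whether GAGGAA goes with the direction of the difference was not tested. A match describes letters in a window, and binding was not measured. For Cxcr2, Ccr4, Ccr9, Cx3cr1, Ccr2 and Cxcr3 the 200 bases before the start overlapped an annotated exon of the same gene. Those of Ccr1 and Ccr3 did not. The windows are reference genome sequence, and the sequence of these mice was not examined.

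Signalling genes downstream of chemokine receptors differed little, as did most genes of the table, and some RGS genes differed more. Of the 11141 genes that passed the filter, 10684 lay within 0.5 of 0 on the log2 scale. All 19 signalling genes, among them the G protein subunit gene Gnai2 and the migration genes Dock2 and Rac2, passed the filter with a median log2 ratio of 0.01 and none past the limit of 0.5. Gnai2 was at 302 in NOD.g7 against 307 in NOD.L7 and Dock2 at 121 and 112. Of the 9 RGS genes, whose products shorten G protein signals, 7 were higher in NOD.L7. Past the limit of 0.5 on that side were 2 of them, against 2.52% of all genes. These were Rgs1, which restrains chemokine responses of B and T cells, at 7.80 and 16.4, and Rgs13, a germinal centre gene, at 1.83 and 3.87. The germinal centre marker list, which holds Rgs13 itself, had 6 of 6 higher in NOD.L7 and summed to 44.6 and 56.3, with none at 0. Bcl6, which gave most of that sum, was at 34.7 and 35.6, and Mybl1 passed through NOD.L7 alone. The part of germinal centre cells in the RGS values was not tested.

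Related genes whose symbols do not follow the naming rule added a few differences. The platelet chemokine gene Ppbp (Cxcl7) was at 6.16 and 10.1, 1.63-fold higher in NOD.L7 (1.43 to 1.88), while Pf4 (Cxcl4) was at 2.75 and 3.37. Of the 7 atypical and related receptors 5 passed the filter, 4 of them higher in NOD.L7. The 1 past the limit of 0.5 was Darc (Ackr1), the Duffy antigen of red cells and venules, at 1.03 and 0.344, 2.99-fold lower (1.81 to 5.04), and it passed the filter through NOD.g7 alone. All 5 red cell markers were lower in NOD.L7, summing to 94.8 and 39.0 with none at 0, and their part in Darc was not tested. Ccbp2 (Ackr2), a scavenger of inflammatory CC ligands, was at 11.5 and 12.6, and Dpp4, a protease that trims chemokines, at 26.3 and 23.995.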

How the data were processed

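The authors deposited 1 table of RPKM values, with 1 column per library and a symbol and coordinates per gene. Columns were matched to libraries by name, LC7 marking NOD.L7, which left the plain NOD column for NOD.g7. Per the submitters' processing notes, CASAVA 1.8.2, SAMtools 0.1.18 and mm9 were used. Gene models, the counting rule, strand and the handling of multiply matching reads: not given in the sources used here. RNeasy extraction and TruSeq libraries are given per the labels' protocols.

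Depth was read from the steps of RPKM times length in single-exon genes under 2500 bases whose span matched GENCODE M21 (whole within 0.15 for all 37 values used in NOD.g7 and 33 in NOD.L7). Fragments were approximated from the longest coding transcript and 200 bases each, a length chosen after the data were seen. The depth step and the coverage of the interval for given counts were tested on simulated data. The approximation of fragments was not tested. A pseudocount of 1 and an RPKM minimum of 1 were used, with limits of 1 and 0.5 on the log2 scale. Genes passing the minimum were named, but for 1 receptor that is counted with the rest and not reported here by name; partners of members past 0.5, and list genes, only as examples. Ratios of a receptor to a marker were chosen after their values were seen. The members and lists were chosen with earlier results of these data known. Python 3.11.15, numpy 2.4.6, pandas 2.3.3 and scipy 1.17.1 were used. Alternatives were pseudocounts of 0.1 and 0.5, no filter, an RPKM minimum of 5, median centring, TMM scaling (trims of 30% for ratios and 5% for levels) and, added after seeing the data, a mean RPKM of at least 1 and leaving out genes sharing at least 10% of their 50-base words.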

Additional observations from a re-analysis of the deposited data

How the results depend on the processing

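With 1 library per genotype, no replicate could be left out and no setting shows how values vary between mice. No paired analysis was possible because there was only 1 library of either kind. The median log2 ratio of receptors was -0.12 at an RPKM minimum of 5, which left 13 of 18 receptors, against 0.05. Under every other setting run it was within 0.1 of that value, and under every setting run the median of ligands was within 0.1 of 0.07. The number of genes past the limit of 1 was 2 under every setting run (Cxcr2 and Ccr1) except a pseudocount of 0.1, which added Ccl24. The number past 0.5 was 6 to 11, against 8. Of 223 values of single genes under alternatives, 218 lay within their counting interval and 5 did not. That count says little, because the filters and the removal of genes left each kept value unchanged by construction. Centring and TMM scaling shifted all genes alike, by about 0.02. At a pseudocount of 0.1, 4 values lay outside and 26 within, and at 0.5, 1 outside and 29 within. Those outside were Ccl24 (-1.35 at 0.1 and -0.95 at 0.5), Ccr9 (-0.82), Ccr8 (0.81) and Ccr4 (0.81). The planned removal of genes with near-identical proteins was not run, because no protein sequences were used here, and shared transcript words took its place. Depth limits the lowest genes, such as Ccr8 and Ccl25.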

Other observations

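Some inflammatory ligands below the RPKM minimum were not compared above, or were given without a fold. Cxcl2, an ELR ligand of Cxcr2 made by activated macrophages and neutrophils, had an RPKM of 0.111 in NOD.g7 against 0.263 in NOD.L7, a fold of 2.38 with a counting interval of 1.16 to 6.03. Ccl2, the main ligand of Ccr2, was at 0.0761 and 0.178 and Ccl1, a ligand of Ccr8, at 0.110 and 0.326, with intervals that held a fold of 1. Ccl17, a dendritic cell ligand of Ccr4, was at 0.337 and 0.456. These levels rest on few fragments, and they are given as values only.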
